A study of Mus musculus with 6 samples.

Results

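The genes described here are 36 transcripts of the dividing cell, 14 of which act in or just before DNA synthesis (S phase) and 22 in mitosis, out of 31253 genes in the tables. They were taken by gene symbol from a fixed list, and all 36 were found. They were followed across the cell types of the mouse liver in 3 groups with 2 libraries each, labelled control, pre-metastatic niche and macro-metastatic niche. The genotype label is ctrl for the control libraries and an orthotopic mouse model of colorectal cancer for the macro-metastatic and pre-metastatic ones, that is, with the tumour placed in the organ it comes from. CT26-GFP, a mouse colon carcinoma line with a green fluorescent protein, is the cell line named for all 6 libraries, controls included. Whole livers were digested with collagenase II, red cells were lysed, dead cells were removed and single cells were captured with the BD Rhapsody system. The labels give no strain, age or time point and do not say whether the 2 libraries of a group came from separate animals, so every p-value measures only the spread between these libraries, which may be technical.

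A cell that divides first licenses its origins of replication. Cdc6 and Cdt1 load the Mcm2 to Mcm7 helicase onto DNA, Gins2 belongs to the complex that turns the helicase on, Pcna is the sliding clamp of the polymerases, and Tyms, Rrm1 and Rrm2 make deoxynucleotides. Uhrf1 carries DNA methylation onto the new strands. Later the kinase Cdk1, with the cyclins Ccna2, Ccnb1 and Ccnb2, drives the cell into mitosis. Top2a untangles the chromosomes, Mki67 coats them, Cenpa, Cenpe and Cenpf act at the centromere, and Kif11, Kif23, Tpx2, Nusap1 and Hmmr build or use the spindle. Aurka, Aurkb, Plk1 and Birc5 belong to the mitotic kinases and their partners, Bub1 and Bub1b hold the checkpoint, and Cdc20 and Ube2c work with the ubiquitin ligase that ends mitosis. The liver is a largely quiescent organ, in which hepatocytes and endothelial cells rarely divide at rest, whereas blood cell precursors, activated lymphocytes and newly formed plasma cells are known to divide.

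Both sets of genes are known for different promoter elements: E2F sites in S-phase genes, and the cell cycle homology region (CHR), often with CCAAT boxes, in mitotic genes. RefSeq start sites on GRCm38.p6 were matched for 31 of the 36 genes, without Aurkb, Ccna2, Gins2, Mcm4 and Tpx2. The stretches printed here are the 200 bases before the start, on the strand of the gene, and are shown because they hold these elements. Capitals mark an E2F spelling, a CHR or a CCAAT box, read on either strand.
Mcm5, chr8:75109309-75109508, plus strand: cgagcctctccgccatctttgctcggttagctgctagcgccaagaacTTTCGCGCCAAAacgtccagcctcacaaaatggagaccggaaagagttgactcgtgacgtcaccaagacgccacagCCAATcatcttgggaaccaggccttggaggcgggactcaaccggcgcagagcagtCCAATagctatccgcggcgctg
Mcm6, chr1:128359706-128359905, minus strand: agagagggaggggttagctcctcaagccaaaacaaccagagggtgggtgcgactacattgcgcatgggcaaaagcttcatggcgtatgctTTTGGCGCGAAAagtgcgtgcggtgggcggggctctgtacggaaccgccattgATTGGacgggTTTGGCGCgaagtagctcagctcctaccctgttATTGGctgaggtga
Cdk1, chr10:69352913-69353112, minus strand: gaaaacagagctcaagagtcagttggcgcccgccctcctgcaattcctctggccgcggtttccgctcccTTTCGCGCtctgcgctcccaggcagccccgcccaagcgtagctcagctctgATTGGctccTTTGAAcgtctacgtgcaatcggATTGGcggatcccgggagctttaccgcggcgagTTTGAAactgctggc
Ube2c, chr2:164769729-164769928, plus strand: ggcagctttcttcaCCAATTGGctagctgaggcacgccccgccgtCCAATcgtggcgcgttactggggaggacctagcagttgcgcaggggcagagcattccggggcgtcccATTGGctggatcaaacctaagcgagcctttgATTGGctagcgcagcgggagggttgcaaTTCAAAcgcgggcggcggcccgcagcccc
Kif11, chr19:37376182-37376381, plus strand: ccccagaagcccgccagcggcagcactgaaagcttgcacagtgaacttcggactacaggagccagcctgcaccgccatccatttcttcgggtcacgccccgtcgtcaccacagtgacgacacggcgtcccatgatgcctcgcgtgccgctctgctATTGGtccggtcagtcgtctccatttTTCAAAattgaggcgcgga

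Motifs were searched on both strands from 250 bases before to 50 bases after the start. An E2F spelling (TTTCCCGC, TTTCGCGC, TTTGCCGC or TTTGGCGC) stood in the windows of 7 of 12 S-phase genes (Cdc6, Cdt1, Mcm3, Mcm5, Mcm6, Mcm7 and Uhrf1) and of 1 of 19 mitotic genes (Cdk1), beside 2.60% of the 27025 genes with a window. The CHR letters TTTGAA stood in 14 of 19 mitotic genes and in 1 of 12 S-phase genes (Mcm2), beside 20.2% of all genes. A CCAAT box was found in 17 of 19 mitotic and 9 of 12 S-phase genes, beside 41.1% of all genes. CHR and CCAAT stood together in 14 mitotic genes and 1 S-phase gene, beside 8.97% of all genes. In the Mcm5 stretch E2F matches of opposite strands overlap, beginning 153 and 149 bases before the start of transcription. The CHR lies 19 bases before the start in Kif11 and 29 bases in Ube2c, and Cdk1 holds a CHR at 71 and at 15 bases beside an E2F spelling at 131. A match is a string of letters and not a shown binding site.

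The 6 libraries held 71908 barcodes, each with at least 500 molecules counted by unique molecular identifier (UMI), and 41914149 to 90819751 UMIs per library. The macro-metastatic libraries were deeper per barcode, with medians of 4234 and 3302 UMIs beside 2412 to 2843 in the other 4. After filters on genes, mitochondrial UMIs and predicted doublets 65092 cells were kept, of which 59365 were given a cell type from marker genes and 5727 were not. The cell type names stand for cells that carried the markers of that type (T-like, B-like and so on). Among the NK markers, Klra8 and Klra4 were detected in 0.884% and 0.947% of NK cells, and Ncr1 in 93.4%. Granule-rich immature neutrophils held Cebpe in 7.53%, Fcnb in 49.5%, Chil3 in 81.4% and Camp in 99.6% of cells. Monocytes and macrophages held Gpnmb in 4.90%, Fcgr1 in 38.0% and Ms4a6c in 97.9% of cells. The smallest tested classes held as few as 25 plasma cells, 36 plasmacytoid dendritic cells, 50 monocytes and macrophages or 62 NK cells in a library. The 2404 barcodes that occur in more than 1 library were treated as separate cells.

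Levels are given in CPM, the UMIs of a gene relative to all UMIs of the cell type in that library, so more cells in cycle and more transcripts per cycling cell cannot be told apart in a sum. Among the types with at least 20 cells in a library, the 22 mitotic genes together were highest in granule-rich immature neutrophils (cells with Camp, Ngp and Ltf) and in granulocyte-monocyte progenitors (Elane, Mpo and Prtn3). In the 3 libraries with enough such cells, pre-metastatic 1, macro-metastatic 1 and macro-metastatic 2, the granule-rich cells stood at 4966, 4418 and 1412 CPM and the progenitors at 4069, 3379.6 and 3160.5 CPM. Plasma cells followed with 3685 and 3507 CPM in the control, 2939 and 815 in the pre-metastatic and 1129 and 2577 in the macro-metastatic libraries. Both plasma cell controls lie above the other 4 libraries, which overlap.

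At the other end, mature neutrophils held 154 to 231 CPM over the 6 libraries and endothelial cells 149.5 to 329 CPM. Plasmacytoid dendritic cells had a median of 148 CPM, with a range from 72.9 CPM to 1430 CPM. The highest value was that of macro-metastatic 1, which held 36 of them. Hepatocytes stood at 59.2, 19.2, 19.9 and 31.8 CPM in the control and pre-metastatic libraries and at 666 CPM in macro-metastatic 2, which held 82 of them. Between these extremes lay T cells (682 to 1851 CPM), type 1 conventional dendritic cells (965 to 1782), NK cells (389 to 3307), monocytes and macrophages (264 to 744), B cells (318 to 699) and Kupffer cells, which are the liver's own macrophages (188 to 475). Neighbouring ranges overlap throughout this middle group. The 48 erythroid precursors, too few to be followed by library, held 8672 CPM of mitotic and 7222 CPM of S-phase genes when pooled.

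**Figure D1:**
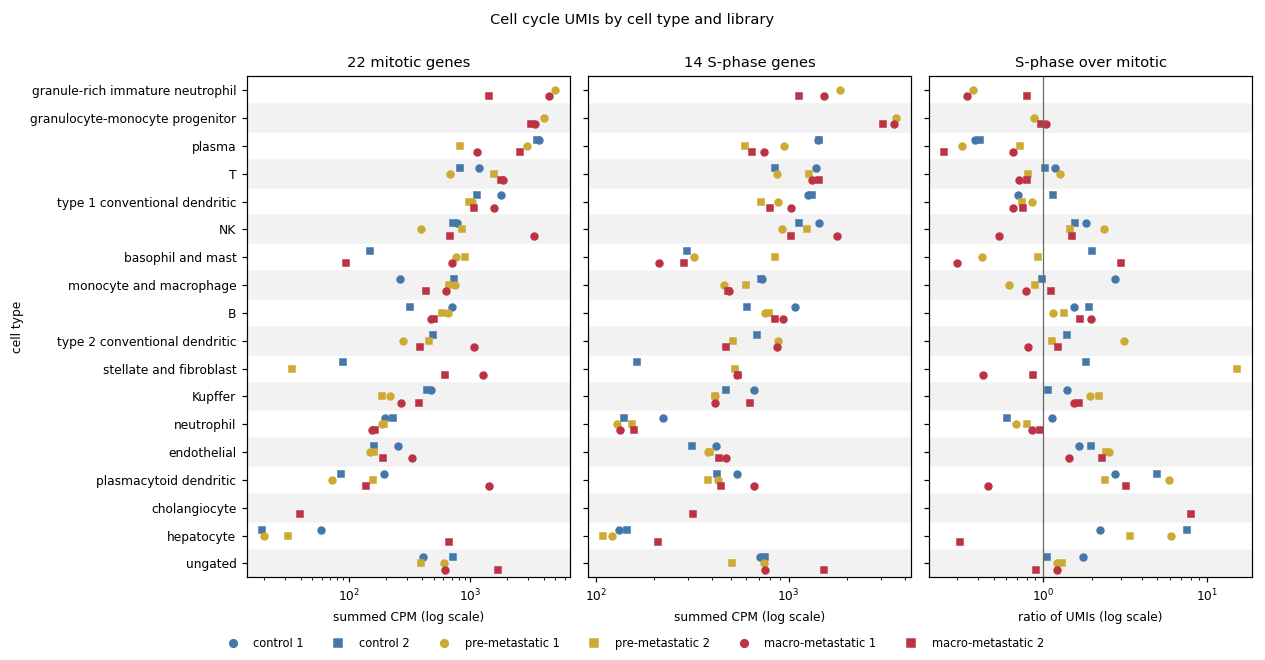
Summed level of the 22 mitotic and of the 14 S-phase genes (CPM, log axes) and the ratio of S-phase to mitotic UMIs (log axis) for each cell type; each symbol is a library, coloured by group. Mature neutrophils lie between 154 and 231 CPM of mitotic genes and plasma cells between 815 and 3685 CPM.

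Leaving out the erythroid precursors, all 14 S-phase genes had their highest median level in the granulocyte-monocyte progenitors, whose S-phase sum was 3101 to 3608 CPM. Of the 22 mitotic genes 21 were highest in the progenitors or the granule-rich cells, and Kif23 was highest in mature neutrophils. NK cells (921 to 1774 CPM), T cells (847 to 1441), type 1 conventional dendritic cells (716 to 1325), B cells (612 to 1079.6) and plasma cells (595 to 1443) overlapped in their S-phase sums. Mature neutrophils held 129 to 224 CPM of S-phase genes.

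The ratio of S-phase to mitotic UMIs varied between cell types, with ranges that overlap for most of them. Its median was 0.37 in granule-rich cells, 0.40 in plasma cells (0.25 to 0.73), 0.92 in T cells, 0.98 in progenitors, 1.61 in Kupffer cells, 1.62 in B cells and 2.13 in endothelial cells (1.44 to 2.54). Mitotic UMIs outnumbered S-phase UMIs in every plasma cell library, and the reverse held in every endothelial library. Much of the S-phase sum was Pcna in endothelial and Kupffer cells, where the sums had medians of 406 and 444 CPM. Pcna levels are given below, and the ratio without Pcna was not computed. In T cells the ratio was 1.19 and 1.03 in the control, 1.28 and 0.81 in the pre-metastatic and 0.71 and 0.80 in the macro-metastatic libraries, so that pre-metastatic 2 lies next to the macro-metastatic pair. In NK cells the median was 1.54, and macro-metastatic 1 stood at 0.54.

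Detection in single cells was compared after every cell was thinned to 1000 UMIs, because the libraries differ in depth. Of the T cells 10.4% to 14.6% held UMIs of at least 2 S-phase genes without 2 mitotic genes, and 1.27% to 6.55% held at least 2 of each. B cells had a like share with S-phase genes alone (9.29% to 17.9%) and 0.295% to 1.3% with both. In the progenitors 52.0%, 42.0% and 32.1% of cells held both.

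Each cell type was compared with the mean of the other 9 in an edgeR quasi-likelihood fit over the 10 types with at least 20 cells in every library, with the library as a block. Of the 36 genes 35 passed the filter on low counts, all but Plk1. Higher or lower means a Benjamini-Hochberg adjusted p under 0.05 over the 10894 genes tested, and differences are log2 values with their SE. Each type also serves in the mean of the others, so the calls of different types are not independent.

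T cells had 33 of 35 genes higher (14 of 14 S-phase, 19 of 21 mitotic), where 37.6% of all genes were higher. The largest differences were in genes of the spindle and the chromosomes: Kif11 (1.70 ± 0.24), Cenpf (1.66 ± 0.28), Top2a (1.60 ± 0.25, adjusted p = 2e-07) and Birc5 (1.58 ± 0.24). The smallest were Pcna (0.56), Gins2 (0.66), Cenpa (0.73) and Bub1b (0.73), and Kif23 and Aurka were not called. Mki67 differed by 1.51 and Mcm5 by 1.06.

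Plasma cells, the antibody-secreting end stage of the B cell line, had 32 of 35 genes higher, all 21 mitotic genes among them, beside 19.2% of all genes. Cdc20 (3.64 ± 0.34), Mki67 (3.64 ± 0.24, adjusted p = 7e-19), Ube2c (3.51 ± 0.31) and Aurkb (3.25 ± 0.28) led. The smallest were Mcm3 (0.75), Cenpa (0.78), Kif23 (0.92) and Rrm1 (1.03), and Mcm4, Mcm7 and Pcna (0.21, adjusted p = 0.13) were not called. The median difference was 2.88 over the mitotic and 1.52 over the S-phase genes, beside -0.25 over all genes. Top2a differed by 2.64 and Mcm5 by 1.59.

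Type 1 conventional dendritic cells, which present antigen to cytotoxic T cells, had 33 of 35 genes higher, beside 30.6% of all genes. Uhrf1 (1.99 ± 0.27), Bub1 (1.81 ± 0.32), Ube2c (1.8 ± 0.29) and Rrm2 (1.78 ± 0.28) led, Pcna (0.49), Mcm4 (0.52), Rrm1 (0.64) and Mcm3 (0.77) were the smallest, and Cdt1 and Cenpa were not called. NK cells had 18 higher, 10 of 14 S-phase and 8 of 21 mitotic genes, beside 24.6% of all genes. The helicase subunit Mcm6 (1.78 ± 0.18, adjusted p = 4.1e-12) led, with Kif11 (1.27), Top2a (1.24) and Mki67 (1.18) next and Mcm3 (0.59), Pcna (0.62), Mcm2 (0.71) and Rrm1 (0.75) smallest. Without macro-metastatic 1 the NK count was 12.

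Mature neutrophils had 32 of 35 genes lower, beside 38.5% of all genes. Cenpe (-3.11), Gins2 (-3.10), Birc5 (-2.82) and Bub1 (-2.76) were the lowest, and Top2a differed by -2.61, Mki67 by -2.51, Mcm5 by -2.38 and Pcna by -1.0. Kif23, a motor of the central spindle that is needed to split the daughter cells, went the other way at 2.68 ± 0.22 (adjusted p = 3.9e-16), as did the kinase Aurka (0.97 ± 0.21).

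Endothelial cells had 30 of 35 genes lower, beside 34.8% of all genes, led by Cdt1 (-2.69 ± 0.15) and followed by Kif23 (-2.65), Mki67 (-2.29) and Kif11 (-2.25). The helicase subunit Mcm3 was higher (0.79 ± 0.12), and Pcna (-0.31), Mcm2 (-0.44) and Rrm1 (-0.53) were among the least lowered. Plasmacytoid dendritic cells, the main producers of type I interferon, had 28 lower, beside 22.8% of all genes, from Ccnb1 (-3.23), Rrm2 (-2.86), Uhrf1 (-2.81) and Cdk1 (-2.78) to Top2a (-1.34), Cenpe (-1.33), Kif23 (-1.24) and Pcna (-0.47).

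Kupffer cells had 14 lower, beside 28.9% of all genes, and 3 higher. Kif11 (-1.34), Nusap1 (-1.11), Cenpa (-1.06) and Top2a (-0.99) were lowest and Gins2 (0.89), Cdk1 (0.54) and Mcm3 (0.30) higher, and 0 were higher without macro-metastatic 2. Mki67 differed by -0.74, and Mcm5 (-0.13, adjusted p = 0.44) and Pcna (0.16, adjusted p = 0.13) did not pass the threshold.

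Monocytes and macrophages had 3 genes higher, Aurkb (0.93), Ccnb1 (0.87) and Aurka (0.66), and 5 lower, Mcm6 (-0.90), Mcm2 (-0.77), Mcm7 (-0.68), Mcm3 (-0.52) and Rrm1 (-0.41), beside 55.6% of all genes called in either direction. All 5 lower genes act in S phase and all 3 higher genes in mitosis. The count of higher genes was 0 without pre-metastatic 1 and 8 without macro-metastatic 1. B cells had 4 higher and 6 lower, beside 59.5% of all genes in either direction. The licensing factor Cdt1 stood apart at 2.47 ± 0.11 (adjusted p = 2.8e-26), with Uhrf1 (0.79), Cenpa (0.73) and Mcm7 (0.60) also higher. Tyms (-1.41), Aurka (-1.24), Kif23 (-1.11), Cdk1 (-1.03), Birc5 (-0.87) and Pcna (-0.24) were lower. The share of the 35 genes called in either direction was 22.9% in monocytes and 28.6% in B cells.

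The levels of 4 widely used markers show how differently they spread. Mki67 had a median of 569 CPM in plasma cells, 205 in T cells, 157 in type 1 conventional dendritic cells, 107 in NK cells, 78.1 in monocytes, 59.6 in B cells, 36.8 in Kupffer cells, 14.5 in endothelial cells, 10.6 in plasmacytoid dendritic cells and 7.17 in neutrophils. Top2a kept this order, at 325, 234, 182, 150.2, 78.6, 71.4, 35.1, 19.1, 12.9 and 7.49 CPM. The library ranges of neighbours in both orders overlap.

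Pcna lay at 462 CPM in NK cells, 456 in T cells, 348 in type 1 conventional dendritic cells, 278 in B cells, 256 in monocytes, 256 in Kupffer cells, 243 in plasma cells, 236 in plasmacytoid dendritic cells, 215 in endothelial cells and 75.8 in neutrophils. Mcm5 lay at 83.8 CPM in T cells, 82.9 in type 1 conventional dendritic cells, 81.2 in NK cells, 78.8 in plasma cells, 50.6 in B cells, 30.8 in monocytes, 23.5 in Kupffer cells, 16.5 in plasmacytoid dendritic cells, 15.8 in endothelial cells and 4.97 in neutrophils. Plasma cells lead for Mki67 and Top2a and lie in the middle for Pcna. Neighbours overlap here too, apart from endothelial cells (8.75 to 23.5 CPM) and neutrophils (0 to 6.59 CPM) for Mcm5.

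The share of cells with UMIs of at least 3 mitotic genes at 1000 UMIs counts cells that hold several such transcripts at once. Intervals and upper limits of shares are Wilson 95% intervals and their upper ends, and cover counting error only. In the progenitors 12 of 25, 44 of 112 and 11 of 28 cells passed (48.0%, 39.3% and 39.3%), and 17, 51 and 11 were too shallow to be thinned. In granule-rich cells it was 13 of 36, 65 of 156 and 4 of 31 (36.1%, 41.7% and 12.9%). In the pooled erythroid precursors it was 28 of 39 (71.8%, interval 56.2% to 83.5%). In plasma cells the share was 25.7% and 27.7% in the control, 22.4% and 9.68% in the pre-metastatic and 13% and 21.6% in the macro-metastatic libraries, each from 23 to 58 cells. Mature neutrophils held 1 such cell in pre-metastatic 2, 2 in macro-metastatic 1 and 0 elsewhere, and the 0 of 3469 in macro-metastatic 2 has an upper limit of 0.111%.

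In T cells the share was 3.73% and 2.26% in the control, 1.73% and 4.93% in the pre-metastatic and 7.52% and 6.45% in the macro-metastatic libraries. Both macro-metastatic libraries lie above the other 4, and the interval of macro-metastatic 2 (5.10% to 8.14%) overlaps that of pre-metastatic 2 (3.92% to 6.18%). Without thinning the T cell shares were 5.16%, 2.70%, 2.60%, 6.25%, 12.1% and 11.5%. With 2 libraries a group the smallest p of an exact permutation test is 0.3333, and these shares were not tested.

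Kupffer cells passed in 4.61% and 3.46% of control, 1.58% and 0.935% of pre-metastatic and 2.24% and 3.14% of macro-metastatic cells. The controls are the highest and the pre-metastatic libraries the lowest. Without thinning the Kupffer shares were 11.5%, 6.39%, 7.14%, 6.31%, 11.3% and 11.9%, and the control and macro-metastatic libraries overlap. Type 1 conventional dendritic cells held 16.1% and 10.6%, 7.49% and 7.89%, and 19.3% and 11.9% in the same order of groups, with the pre-metastatic pair lowest.

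NK cells held 0.943% to 3.77% in 5 libraries and 10 of 59 cells in macro-metastatic 1 (16.9%, interval 9.48% to 28.5%). Endothelial cells held 0.457% to 0.994% in 5 libraries and 1.99% in macro-metastatic 1. The high value of both types is that of a single library. B cells held 0.442% to 1.49%. Stellate cells and fibroblasts held 0 of 22 in control 2, 0 of 21 in pre-metastatic 2, and 4 of 33 and 11 of 138 in the macro-metastatic libraries. Their gate rests mostly on Dcn and collagen genes: Dcn was found in 90.9% of them, Lrat in 9.06%, Reln and Colec11 in 11.8% and Pdgfrb in 16.4%.

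**Figure D2:**
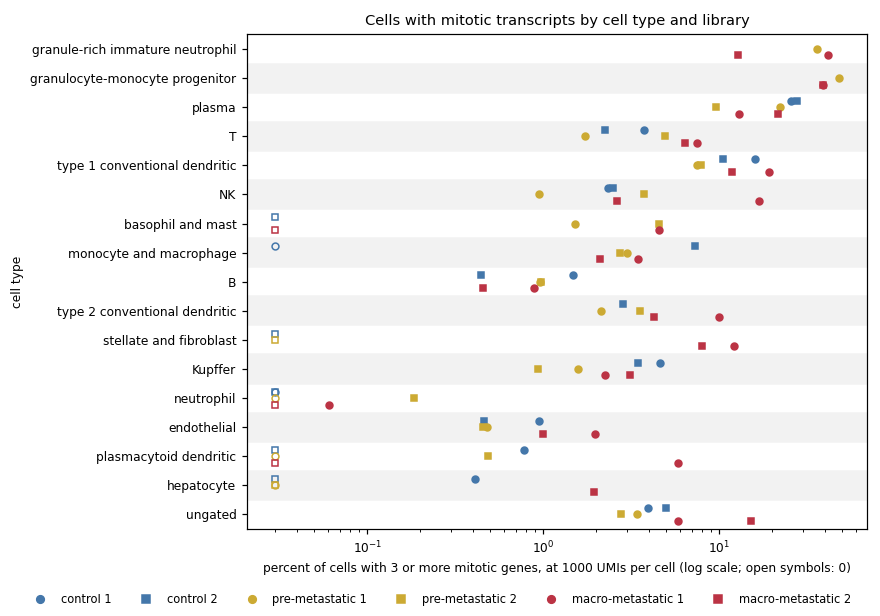
Percent of cells, thinned to 1000 UMIs, with UMIs of 3 or more mitotic genes (log axis, open symbols for 0) in each cell type; each symbol is a library, coloured by group. T cells lie at 7.52% and 6.45% in the macro-metastatic libraries and at 1.73% to 4.93% in the other 4.

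How often a UMI of a single gene came with other mitotic transcripts differed by gene and by cell type. Among the thinned cells with a UMI of a gene, the share that also held at least 2 other mitotic genes was counted over the 6 libraries together. In T cells the median was 80.8% over 20 mitotic genes and 24.8% over 14 S-phase genes. In type 1 conventional dendritic cells these were 83.5% and 30.7%, in endothelial cells 58.1% and 11.5%, in B cells 35.7% and 7.5%, and in neutrophils 1.57% and 1.77%.

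Kif23 in neutrophils was mostly found without other mitotic transcripts, and so were the mitotic genes of neutrophils in general. The 10 mitotic genes with a share there, Kif23 among them, lay between 0% and 6.06%. Of the neutrophils with a Kif23 UMI 6 of 495 held 2 other mitotic genes (1.21%, interval 0.557% to 2.62%), beside 77 of 188 in T cells (41.0%), 30 of 63 in endothelial cells (47.6%), 57 of 182 in Kupffer cells (31.3%) and 42 of 59 in type 1 conventional dendritic cells (71.2%). Kif23 made up 1086 of the 2967 mitotic UMIs of neutrophils (36.6%), the centromere histone Cenpa 24.5% and Mki67 6.10%. The last 500 bases of the Kif23 transcript share no run of 31 bases with another annotated gene, as holds for Top2a, Ube2c and Birc5. Other listed genes share part of these runs, read on either strand. The share was 27.4% for Cdc20, 26.0% for Cenpf, 25.5% for Ccna2 and 21.9% for Mki67. For Mcm2 it was 21.3%, for Kif11 17.0% and for Cenpa 10.6%. The part of shared runs in the levels was not tested for any gene.

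Cenpa had the lowest such share of the 21 mitotic genes in endothelial cells. In endothelial cells 38 of 931 cells with Cenpa held 2 other mitotic genes (4.08%), beside 81 of 152 with Top2a (53.3%) and 76 of 152 with Mki67 (50.0%). Cenpa was the leading mitotic gene by UMIs in endothelial cells (25.7% of the list), B cells (26.7%), monocytes (16.1%) and plasmacytoid dendritic cells (29.7%). In T cells the shares with 2 other mitotic genes were 20.6% for Cenpa, 57.4% for Top2a and 71.9% for Mki67.

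Among the S-phase genes, 3.19% of the 2696 endothelial cells with a Pcna UMI held 2 mitotic genes, as did 9.13% of 2652 T cells and 20.5% of 259 type 1 conventional dendritic cells. Pcna also serves DNA repair. Cdt1 in B cells came with 2 mitotic genes in 6 of 447 cells (1.34%, interval 0.617% to 2.90%), beside 49 of 499 in T cells (9.82%) and 7 of 28 in type 1 conventional dendritic cells (25%).

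**Figure D3:**
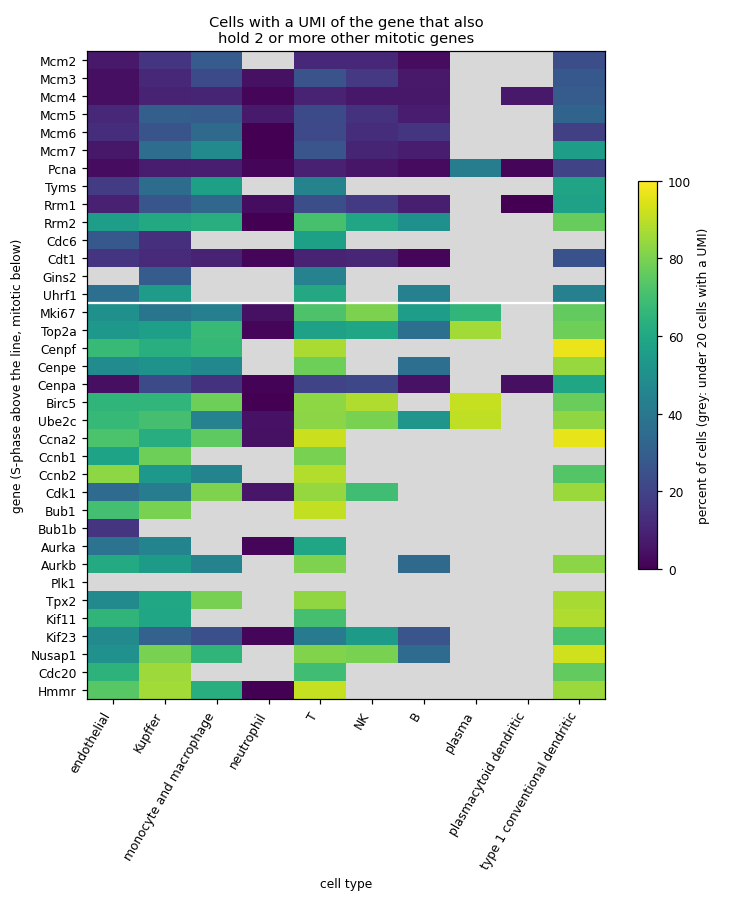
Of the cells with a UMI of each gene (rows), the percent that also held 2 or more other mitotic genes, by cell type (columns), over all 6 libraries at 1000 UMIs per cell; grey marks genes with under 20 such cells. Kif23 stands at 1.21% in neutrophils and 41.0% in T cells, and the mitotic genes shown for neutrophils lie between 0% and 6.06%.

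The mitotic UMIs of a library came from cell types whose weight differed between libraries. T cells gave 39.8% and 23.1% of them in the control, 13.2% and 27.3% in the pre-metastatic and 5.64% and 14% in the macro-metastatic libraries, where they were 3.61% and 7.56% of the cells. Kupffer cells gave 11.6% to 14.8% in the first 4 libraries and 18.3% and 25.5% in the macro-metastatic ones. Plasma cells, at most 0.606% of the cells, gave 5.09% and 7.71% in the controls. Mature neutrophils were 29.1% and 26.8% of macro-metastatic cells and gave 2.48% and 2.46%, whereas granule-rich immature neutrophils were 1.56% of the cells of macro-metastatic 1 and gave 12.3%. Cells that no marker gate took gave 29.8% in macro-metastatic 2, more than any named type there, and 8.43% to 19.3% in the other 5 libraries.

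The groups were compared within each of the 10 cell types by edgeR's quasi-likelihood test on summed UMIs, with Benjamini-Hochberg adjustment over all genes tested in that type. Over the types 280 pairs of a gene and a type passed the filter on low counts, from 36 in T and Kupffer cells to 8 each in neutrophils and plasmacytoid dendritic cells. A gene that passed only through the group where it is high had to differ, so the counts describe the genes tested. The comparisons share libraries and are not independent. Counts under other settings or without a library cover the listed genes only. How many of all genes were called in those fits was not counted, so a shift may not be particular to the listed genes.

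Against control, the macro-metastatic libraries had 17 pairs higher and 8 lower, beside 11.1% and 6.73% of all genes tested. The fits use TMM factors, which set the libraries on a common scale from the bulk of genes. With no TMM scaling, which was tried after the data had been seen, 10 pairs were higher and 13 lower, and the median of all genes lay between -0.26 and -0.03 by cell type. Leaving out control 2 gave 3 higher pairs and leaving out macro-metastatic 2 gave 40, and the lower pairs were 3 without control 1 and 16 without macro-metastatic 2. Neutrophil markers were higher in every other tested type in the macro-metastatic libraries: the 8 markers, 0 of them at 0, summed to 33.1 and 54.8 CPM in control and 938 and 602 CPM in macro-metastatic T cells, and to 119 and 91.0 beside 861 and 1069.9 CPM in endothelial cells, against a median of 50582 CPM in neutrophils. Kupffer markers summed to 65.4 and 58.4 CPM in control and 419 and 339 CPM in macro-metastatic T cells, to 53.2 and 52.4 beside 409 and 381 CPM in B cells and to 38.6 and 10.8 beside 489.9 and 487 CPM in plasma cells, against a median of 16671 CPM in Kupffer cells. The 5 progenitor markers stood at 0 and 0 CPM in control and 19.4 and 4.61 CPM in macro-metastatic T cells, against a median of 11594 CPM in progenitors. The part of these markers in the results was not tested.

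In T cells 5 of 36 genes were higher and 0 lower, beside 27.6% of all genes called. Cenpa stood at 98.6 and 99.4 CPM in the control, 78.7 and 141 in the pre-metastatic and 201 and 251 in the macro-metastatic libraries, and rose by 1.22 ± 0.24 (adjusted p = 0.0036). The kinetochore motor Cenpe stood at 34.6 and 31.2, 25.6 and 58.8, and 72.6 and 70.0 CPM in the same order of groups (1.13 ± 0.31, adjusted p = 0.018). For both genes the macro-metastatic libraries lie above all others, and pre-metastatic 2 above the controls.

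Kif11, which pushes the spindle poles apart, stood at 30.4 and 22.5, 23.3 and 50.2, and 58.1 and 49.4 CPM in T cells (1.01 ± 0.32, adjusted p = 0.036), with overlap between pre-metastatic and macro-metastatic libraries. The cyclin Ccnb2 stood at 26.9 and 23.3, 18.1 and 31.3, and 40.1 and 46.1 CPM (0.81 ± 0.27, adjusted p = 0.043) and Gins2 at 3.85 and 3.09, 2.59 and 3.83, and 7.61 and 11.1 CPM (1.48 ± 0.43, adjusted p = 0.025). The last 500 bases of Gins2 lie wholly within Gse1 on the opposite strand, and whether the counting used strand is not given in the sources used here, so Gins2 calls are uncertain in every type. The T cell medians were 0.76 for mitotic, 0.47 for S-phase and -0.01 for all genes. The T cell count was 12 without control 1, 1 without control 2, 2 without macro-metastatic 1, 0 without macro-metastatic 2 and 15 without either pre-metastatic library.

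In NK cells 4 of 28 genes were higher, all mitotic, beside 9.38% of all genes called. Hmmr, a spindle protein, stood at 12.3 and 16.9 CPM in the control, 6.71 and 11.0 in the pre-metastatic and 135 and 19.4 in the macro-metastatic libraries (2.42 ± 0.70, adjusted p = 0.041). Cenpe stood at 28.7 and 15.5, 13.4 and 31.3, and 142 and 34.5 CPM (2.11 ± 0.60, adjusted p = 0.037), Kif23 rose by 1.94 ± 0.54 and Cenpa by 1.56 ± 0.42. With no TMM scaling Hmmr, Cenpe and Kif23 were not called (adjusted p = 0.06, 0.056 and 0.051). The high values are those of macro-metastatic 1, with 62 NK cells. The count was 0 without macro-metastatic 1, 0 without control 1, 0 without control 2, 22 without macro-metastatic 2 and 6 without either pre-metastatic library.

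In endothelial cells 3 of 35 genes were higher and 1 lower, beside 22.0% of all genes called. Cenpa stood at 82.7 and 77.8 CPM in the control, 51.2 and 52.1 in the pre-metastatic and 35.9 and 36 in the macro-metastatic libraries and fell (-0.96 ± 0.14, adjusted p = 0.0044), and the 3 groups do not overlap. Mcm3 rose, at 37.1 and 33.1, 33.1 and 35.6, and 47.0 and 45.3 CPM (0.60 ± 0.15, adjusted p = 0.031), as did the spindle assembly factor Tpx2, at 10.1 and 5.16, 7.11 and 7.81, and 21.6 and 12.6 CPM (1.37 ± 0.37, adjusted p = 0.037). With no TMM scaling Mcm3 (adjusted p = 0.089) and Tpx2 (adjusted p = 0.053) were not called. Gins2 was called at 2.32 ± 0.48 from 0.713 and 0.475, 0.867 and 1.07, and 3.23 and 1.97 CPM. Of the 35 genes 33 had a positive value, with medians of 0.82 for mitotic, 0.59 for S-phase and -0.01 for all genes. The higher genes were 0 without control 1, 0 without control 2, 12 without macro-metastatic 2 and 1 without either pre-metastatic library, and Cenpa was not called without control 1.

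In Kupffer cells 3 of 36 genes were higher and 2 lower, beside 31.1% of all genes called. Ube2c stood at 47.9 and 59.0 CPM in the control, 18.5 and 13.4 in the pre-metastatic and 18.8 and 23.0 in the macro-metastatic libraries and fell (-1.14 ± 0.19, adjusted p = 0.0038). Kif23 stood at 46.8 and 42.6, 18.9 and 23.5, and 24.7 and 24.2 CPM and fell too (-0.66 ± 0.16, adjusted p = 0.018). For both genes the controls lie above the other 4 libraries.

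Kupffer Mki67 went the other way, at 38.9 and 34.8, 24.0 and 19.0, and 43.3 and 56.9 CPM (0.65 ± 0.18, adjusted p = 0.029), as did Cdt1, at 27.4 and 22.4, 17.5 and 18.0, and 29.1 and 40.7 CPM (0.69 ± 0.19, adjusted p = 0.029), and Gins2 (1.07 ± 0.34). For Mki67 and Cdt1 the macro-metastatic libraries lie highest and the pre-metastatic libraries lowest. With no TMM scaling these were not called (Mki67 0.44, adjusted p = 0.1, Cdt1 0.48, adjusted p = 0.098, Gins2 0.86, adjusted p = 0.096), whereas Ube2c and Kif23 were. The higher Kupffer genes were 0 without control 1, 0 without control 2, 7 without macro-metastatic 1, 0 without macro-metastatic 2 and 1 without either pre-metastatic library, and the lower ones 1 without control 1 and 5 without macro-metastatic 2. Endothelial markers in the Kupffer cells summed to 2496 and 2339 CPM in the control, 1753 and 2229 in the pre-metastatic and 358 and 455 in the macro-metastatic libraries, against a median of 19553 CPM in endothelial cells, and their part in the result was not tested.

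In B cells 2 of 29 genes were called, beside 16.0% of all genes. Cdt1 stood at 133 and 119.8 CPM in the control, 140.0 and 124 in the pre-metastatic and 241 and 227 in the macro-metastatic libraries and rose (0.93 ± 0.18, adjusted p = 0.0021). Rrm2, the regulated subunit of ribonucleotide reductase, stood at 33.6 and 13.5, 16.5 and 33.5, and 6.65 and 5.56 CPM and fell (-1.91 ± 0.59, adjusted p = 0.039). The macro-metastatic libraries lie outside the other 4 for both genes. Cdt1 was called in all 6 fits that left out a library. Rrm2 was not called without control 1, macro-metastatic 1 or macro-metastatic 2.

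In plasma cells 2 of 30 genes were called, both lower, beside 7.31% of all genes. Kif11 stood at 137 and 108 CPM in the control, 84.2 and 55.2 in the pre-metastatic and 33.7 and 31.5 in the macro-metastatic libraries (-1.62 ± 0.35, adjusted p = 0.015), and Mcm4 at 133 and 115, 76.1 and 92.0, and 44.9 and 31.5 CPM (-1.43 ± 0.35, adjusted p = 0.027). The 3 groups do not overlap for either gene. Of the 30 genes tested 2 had a positive value. Kif11 was not called without control 1 or control 2. Mcm4 was not called without control 1, control 2 or macro-metastatic 2. Without macro-metastatic 2 the lower genes were 9.

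In type 1 conventional dendritic cells 1 of 35 genes was called, beside 12.9% of all genes: Rrm2 stood at 74.2 and 138 CPM in the control, 61.1 and 42.3 in the pre-metastatic and 47.7 and 40.3 in the macro-metastatic libraries (-1.17 ± 0.28, adjusted p = 0.021). Rrm2 was not called without control 2 or macro-metastatic 2. In neutrophils 1 of 8 genes was called, beside 13.6% of all genes. Kif23 stood at 125 and 189 CPM in the control, 123 and 130.0 in the pre-metastatic and 46.4 and 43.2 in the macro-metastatic libraries, from 19 and 54 UMIs in the controls and 353 and 306 in the macro-metastatic libraries, and fell (-1.71 ± 0.26, adjusted p = 0.002). Both macro-metastatic libraries lie below all others. Kif23 was not called without control 2.

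In plasmacytoid dendritic cells 1 of 8 genes was called, beside 11.4% of all genes: Cenpa stood at 34.2 and 47.9 CPM in the control, 40.7 and 43.0 in the pre-metastatic and 219 and 91.3 in the macro-metastatic libraries (1.77 ± 0.38, adjusted p = 0.005). Cenpa was called in all 6 fits that left out a library. Without macro-metastatic 2 the higher genes were 5. In monocytes and macrophages edgeR called 0 of 35 genes and DESeq2 0, with 1 at an unadjusted p under 0.05, beside 8.16% of all genes called.

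**Figure D4:**
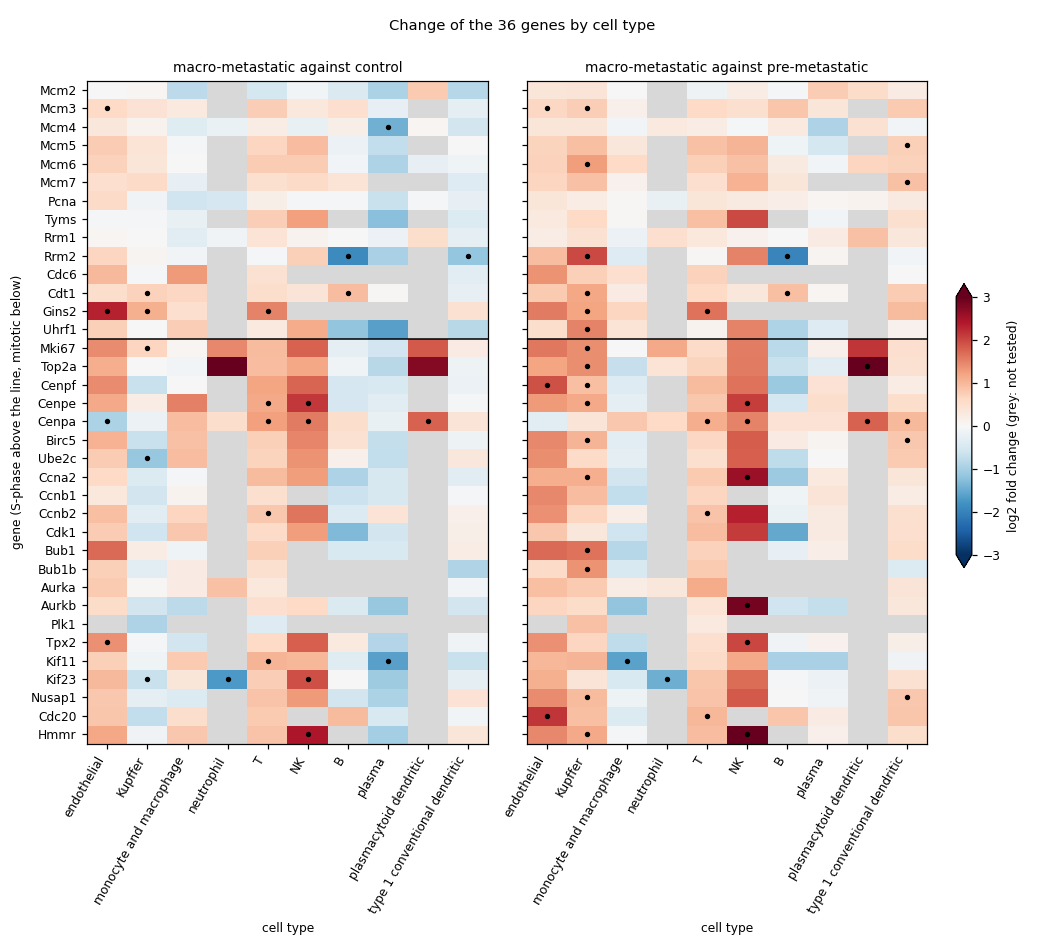
Log2 fold change of the 36 genes (rows) in 10 cell types (columns) for macro-metastatic against control (left) and against pre-metastatic (right); red is higher in macro-metastatic, dots mark an adjusted p under 0.05 and grey marks genes not tested. On the left 17 pairs are higher and 8 lower, on the right 37 and 3.

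Pre-metastatic against control gave 0 pairs higher and 1 lower of 280, beside 0.153% and 0.0289% of all genes tested. At an unadjusted p under 0.05 there were 53 pairs, and DESeq2 called 12 lower, 11 of them in Kupffer cells, and 0 higher. The share of all genes that passed either of these thresholds was not counted. The edgeR call was Ube2c in Kupffer cells, at the levels given above (-1.70 ± 0.20, adjusted p = 0.029). The lower Kupffer genes were 0 without control 1, 0 without control 2, 0 without pre-metastatic 2, 9 without macro-metastatic 1 and 10 without macro-metastatic 2.

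All 36 Kupffer genes had a negative value in that comparison and 26 an unadjusted p under 0.05, with medians of -1.24 for mitotic, -0.47 for S-phase and 0.00 for all genes. How many of all genes had such an unadjusted p was not counted in any type. Top2a stood at 52.2 and 38.3 CPM in the control, 18.5 and 14.9 in the pre-metastatic and 31.9 and 46.0 in the macro-metastatic libraries (-1.41 ± 0.24, adjusted p = 0.085). Birc5, an inhibitor of apoptosis that works with Aurkb, stood at 45.0 and 31.8, 11.9 and 11.7, and 15 and 27.2 CPM (-1.68 ± 0.29, adjusted p = 0.094). For both genes the pre-metastatic libraries lie below the other 4. Type 1 conventional dendritic cells likewise had 0 of 35 positive values and 16 with an unadjusted p under 0.05. T cells had 17 of 36 positive values and 0 with such a p.

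Macro-metastatic against pre-metastatic gave 37 pairs higher and 3 lower, beside 10.6% and 5.99% of all genes, and with no TMM scaling 23 and 5. The higher pairs were 8 without pre-metastatic 1 and 60 without macro-metastatic 2. Kupffer cells held 16 of them (44.4% of the 36 genes), where 29.0% of all genes were called, and all 36 genes had a positive value. Rrm2 stood at 30.7 and 12.7 CPM in the control, 5.69 and 5.90 in the pre-metastatic and 10.9 and 29.8 in the macro-metastatic libraries (1.98 ± 0.51, adjusted p = 0.022). Bub1 (1.63), Uhrf1 (1.49), Mki67 (1.39, adjusted p = 0.00098) and Top2a (1.39, adjusted p = 0.003) were next, and Mcm3 (0.75), Cenpf (0.91), Nusap1 (0.95) and Birc5 (1.01) were the smallest calls. For Rrm2 and Top2a the control and macro-metastatic libraries overlap, and for Birc5 the controls lie highest. Kupffer Mcm3, Cenpf, Ccna2 and Birc5 were not called with no TMM scaling (adjusted p = 0.1, 0.093, 0.081 and 0.054). The Kupffer count was 24 without macro-metastatic 1, 6 without macro-metastatic 2, 5 without pre-metastatic 1 and 5 without pre-metastatic 2.

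In NK cells 6 of 28 genes were higher than in the pre-metastatic libraries, beside 8.48% of all genes called: Hmmr (3.17), Aurkb (2.86), Ccna2 (2.58), Cenpe (2.06), Tpx2 (2.01) and Cenpa (1.49). Aurkb stood at 22.5 and 21.1 CPM in the control, 6.71 and 1.84 in the pre-metastatic and 48.3 and 15.1 in the macro-metastatic libraries, so that control and macro-metastatic libraries overlap. Without TMM scaling Ccna2, Cenpe, Tpx2 and Cenpa were not called (adjusted p = 0.058, 0.062, 0.065 and 0.06). The count was 0 without macro-metastatic 1, 0 without pre-metastatic 1, 26 without macro-metastatic 2, 15 without pre-metastatic 2, 2 without control 1 and 1 without control 2.

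In T cells 4 of 36 genes were higher, beside 21.6% of all genes called: Gins2 (1.64), Cenpa (1.09), Cdc20 (1.01) and Ccnb2 (0.86). Cdc20, an activator of the ligase that starts anaphase, stood at 18.2 and 14, 10.6 and 17.6, and 24.9 and 29.3 CPM, with the macro-metastatic libraries above the other 4. The count was 2 without macro-metastatic 1, 0 without macro-metastatic 2, 0 without pre-metastatic 1 and 23 without pre-metastatic 2.

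In type 1 conventional dendritic cells 5 of 35 genes were higher, beside 19.1% of all genes called: Cenpa (0.98), Mcm7 (0.89), Birc5 (0.82), Nusap1 (0.81) and Mcm5 (0.72). Mcm5 stood at 101 and 93.4 CPM in the control, 62.0 and 55.4 in the pre-metastatic and 102 and 72.5 in the macro-metastatic libraries, so that control and macro-metastatic libraries overlap. The last 500 bases of Mcm7 share 43.8% of their runs of 31 bases with other genes. With no TMM scaling Cenpa, Birc5, Nusap1 and Mcm5 were not called (adjusted p = 0.059, 0.055, 0.058 and 0.068). The count was 0 without macro-metastatic 1 and 1 without either pre-metastatic library. In endothelial cells 3 of 35 were higher, beside 13.2% of all genes called: Cdc20 (2.13), Cenpf (1.92) and Mcm3 (0.62). Of these, Cenpf and Mcm3 were not called with no TMM scaling (adjusted p = 0.054 and 0.094). There were 0 without either pre-metastatic library, 1 without control 1 and 13 without macro-metastatic 2.

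The other cell types held few calls against pre-metastatic. In plasmacytoid dendritic cells Cenpa (1.77) and Top2a (3.96) were higher, 2 of 8 genes beside 10.8% of all genes called, and Top2a stood at 31.9 and 6.25 CPM in the control, 0 and 14.3 in the pre-metastatic and 318 and 11.4 in the macro-metastatic libraries, so that macro-metastatic 1 alone is high. Top2a was not called without pre-metastatic 1 or macro-metastatic 1. In B cells Cdt1 rose (0.90) and Rrm2 fell (-1.98), 2 of 29 genes beside 11.6% of all genes called. Cdt1 was called in all 6 fits that left out a library. Rrm2 was not called without pre-metastatic 2, macro-metastatic 1 or macro-metastatic 2. In monocytes Kif11 stood at 5.18 and 4.79, 18.2 and 34.2, and 8.02 and 6.05 CPM (-1.61 ± 0.38, adjusted p = 0.025), 1 of 35 genes beside 13%. Kif11 was not called without pre-metastatic 2, macro-metastatic 1 or macro-metastatic 2. In neutrophils Kif23 fell (-1.46), 1 of 8 genes beside 18.5%. Kif23 was called in all 6 fits that left out a library. In plasma cells edgeR called 0 of 30 genes and DESeq2 0, with 2 at an unadjusted p under 0.05, beside 6.77% of all genes called.

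Whether the change from control in a cell type differed from that in B cells of the same libraries was tested as an interaction, with the library as a block. Of 294 pairs 16 were higher and 3 lower, beside 2.51% and 1.11% of all genes. In T cells Tyms (2.57), Rrm2 (1.96), Nusap1 (1.48), Mki67 (1.23), Top2a (1.06) and Cenpa (0.76) rose relative to B cells. B cell Rrm2 itself fell. With no TMM scaling 9 pairs were higher and 5 lower. The higher pairs were 2 without control 1, 7 without macro-metastatic 1 and 26 without macro-metastatic 2.

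The machinery that lets a cell into the cycle or holds it back was followed in 4 further lists. The cyclins D bind Cdk4 and Cdk6 and thereby free the E2F factors, and Cdkn1a (p21) inhibits cyclin-dependent kinases. In macro-metastatic against control, 16 of 152 tested pairs of a G1 control gene and a cell type were higher and 9 lower, where 11.1% and 6.73% of all genes were. For the brakes it was 23 and 9 of 93, for other replication genes 5 and 5 of 110, and for other mitotic genes 10 and 0 of 110. The list of brakes also holds Mdm2, which is not itself a brake. Against control the brakes alone of these lists lie above the share of all genes, in higher and in lower pairs. Most of the higher brake pairs are those of Cdkn1a and Mdm2. Against pre-metastatic the pairs higher and lower were 29 and 8, 24 and 8, 12 and 0, and 15 and 0 in the same order of lists, where 10.6% and 5.99% of all genes were. There every list lies above the share of all genes in higher pairs, the other replication genes only just. In lower pairs the brakes alone do.

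Cdkn1a rose against control in all 9 types where it was tested. In T cells Cdkn1a stood at 10.1 and 10.4 CPM in the control, 13.5 and 23.6 in the pre-metastatic and 109 and 93.9 in the macro-metastatic libraries (3.31 ± 0.26, adjusted p = 1.7e-05). In endothelial cells it stood at 24.3 and 30.3, 60.4 and 155, and 370.1 and 694 CPM (4.5 ± 0.54) and in B cells at 3.74 and 6.35, 4.12 and 13.6, and 46.6 and 38.1 CPM (3.04 ± 0.50). In all 9 types both macro-metastatic libraries lie above the other 4. Cdkn1a rose by 2.95 in type 1 conventional dendritic cells, 2.94 in Kupffer cells, 2.76 in plasmacytoid dendritic cells, 2.49 in NK cells, 1.51 in monocytes and 1.43 in neutrophils. It rose in 9 types against pre-metastatic as well, and in 5 without pre-metastatic 1. Plasma cells were not tested.

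Ccnd2 fell against control in endothelial cells, Kupffer cells, T cells and NK cells, and Ccnd3 rose in endothelial cells, Kupffer cells, plasmacytoid dendritic cells and type 1 conventional dendritic cells. In T cells Ccnd2 stood at 1024 and 1108 CPM in the control, 1052 and 873 in the pre-metastatic and 515 and 377 in the macro-metastatic libraries (-1.24 ± 0.17), and in Kupffer cells it changed by -2.28 ± 0.22 (adjusted p = 0.00026). Ccnd3 in type 1 conventional dendritic cells stood at 72.0 and 80.0, 93.3 and 68.4, and 309 and 273 CPM (2.08 ± 0.20, adjusted p = 0.00013). The macro-metastatic libraries lie outside the other 4 for both cyclins in these cells. Ccnd3 was called higher in 2 types without control 1. Cdk6 rose in T cells, at 67.5 and 57.0, 69.9 and 88.5, and 273 and 185 CPM (1.88 ± 0.22), as did Lin54, a subunit of the complex that binds the CHR (1.34 ± 0.15).

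Among the other genes of the brakes list, the ubiquitin ligase Mdm2 rose in 5 types. In Kupffer cells Mdm2 stood at 75.0 and 80.8, 91.9 and 95.6, and 416 and 304 CPM (2.43 ± 0.19, adjusted p = 9.9e-05). Gadd45a, a gene of the DNA damage response, rose in 3 types (endothelial cells, 2.10 ± 0.16), and the antiproliferative gene Btg2 fell in 4, in neutrophils at 4153 and 3811, 3659 and 3654, and 833 and 892 CPM (-2.07 ± 0.19). Without control 1 Mdm2 was called in 2 types, Btg2 in 2 and Gadd45a in 1, and without either pre-metastatic library Gadd45a was called in 5. Of the other mitotic genes, Cdca8, a partner of Aurkb and Birc5, rose in 4 types (1.95 ± 0.37 in T cells). Cdca8 was called in 2 types without control 1 and in 1 without control 2. Ckap2l, a spindle protein, rose in endothelial cells (2.33 ± 0.26), and Cdca3 (1.04) and Prc1 (1.08) rose in T cells. Of the other replication genes, the origin subunit Orc6 rose in T cells (1.09 ± 0.21) and B cells and fell in endothelial and Kupffer cells. Orc1 (1.38) and Rfc3 (1.3) rose in T cells, and the chromatin assembly subunit Chaf1b rose in Kupffer cells (4.05 ± 0.81).

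**Figure D5:**
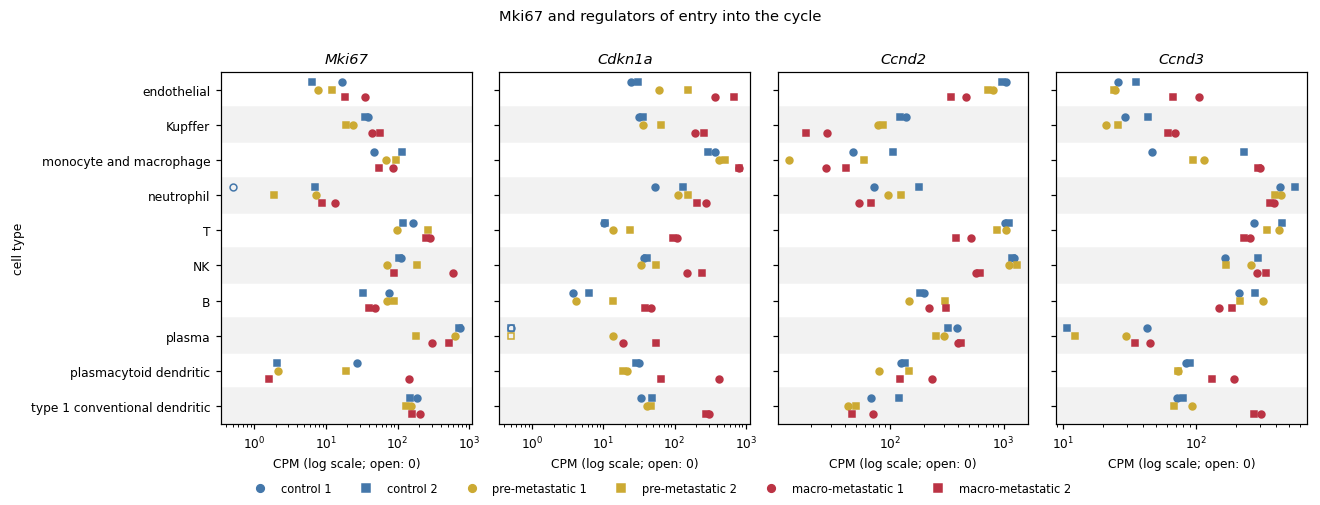
Level (CPM, log axes) of Mki67, Cdkn1a, Ccnd2 and Ccnd3 in the 10 cell types; each symbol is a library, coloured by group. Cdkn1a in T cells lies at 10.1 to 23.6 CPM in the control and pre-metastatic libraries and at 109 and 93.9 CPM in the macro-metastatic ones.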

How the data were processed

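Single-cell RNA was measured in 6 mouse liver libraries, 2 per group. The authors deposited matrices of raw UMI counts, with genes in rows and barcodes in columns. Per the submitters' processing notes CASAVA 1.8 and UMI-tools were used with the mm10 build. For the aligner, the annotation and the use of strand, the sources used here name nothing.

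Barcodes needed 300 detected genes or more and a mitochondrial share below 25%, and doublets were called with Scrublet in scanpy 1.11.5 (score over 0.25). Cell types were assigned from per-cell sums of marker genes, since no deposited annotation was used. Counts were summed per type and library, and types with at least 20 cells in each library were tested with edgeR 4.0.16 (filterByExpr, TMM, quasi-likelihood test, Benjamini-Hochberg adjustment, threshold 0.05, R 4.3.3) on all 6 libraries. The scripts were tested on simulated data. For shares, cells were thinned to 1000 UMIs, leaving out shallower ones.

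The 36 genes, the other lists and the tests were chosen with earlier results of these data known. Every called gene of the 36 is named in a type and comparison, or the 4 highest and 4 lowest where more than 8 are called. Mki67, Top2a, Pcna and Mcm5 are given in each type, and of the other lists up to 4 genes by smallest adjusted p.

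Alternatives were no filter, no TMM scaling, other cell filters and gates, doublets kept, a replicate block, DESeq2 1.42.0, each library left out, and thinning to 500 UMIs or 2 mitotic genes. For the group comparisons, no TMM scaling was chosen after seeing the data.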

Additional observations from a re-analysis of the deposited data

Results flagged for a closer look

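The change from control to macro-metastatic was tested against the change in B cells of the same libraries, and the genes below differed from B cells by edgeR's interaction test (adjusted p under 0.05, log2 differences). Each rests on 2 libraries per group. In endothelial cells Rrm2 (2.69), Uhrf1 (1.94), Mki67 (1.70) and Top2a (1.21) rose relative to B cells and the centromere histone Cenpa fell (-1.38). In T cells Tyms (2.57), Rrm2 (1.96), Nusap1 (1.48), Mki67 (1.23), Top2a (1.06) and Cenpa (0.76) rose relative to B cells. In NK cells Rrm2 (2.31), Cenpe (2.30) and Mki67 (1.56) did, and in Kupffer cells Rrm2 (2.22). Mcm4 fell relative to B cells in plasma cells (-1.67) and Cdt1 in type 1 conventional dendritic cells (-1.18). In B cells alone Rrm2 stood at 33.6 and 13.5, 16.5 and 33.5, and 6.65 and 5.56 CPM and Cdt1 at 133 and 119.8, 140.0 and 124, and 241 and 227 CPM in control, pre-metastatic and macro-metastatic libraries. Another 2 pairs, in neutrophils, are not given because both control libraries held 0 UMIs.

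Cells that no marker gate took were outside the comparisons. Of these, 203 cells with a UMI of the keratin gene Krt20, which were singled out after their values were seen, came from macro-metastatic 2, with 1 in macro-metastatic 1 and 0 in the other 4 libraries. They held 2657 CPM of mitotic and 2381 CPM of S-phase genes, and 69 of 167 thinned cells had at least 3 mitotic genes (41.3%, Wilson interval 34.1% to 48.9%). The other ungated cells had 2.79% to 9.08% over the 6 libraries. The genes highest in the Krt20 cells relative to all others were Il1rl1, Rpl39l, Spp1, S100a4, Rhox5 and Lgals1. Col1a2, a marker of the stellate and fibroblast gate, was found in 78.3% of the Krt20 cells. Whether such cells entered that gate was not tested.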

How the results depend on the processing

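Settings that moved a count of called pairs by over 1.5 times were as follows. For macro-metastatic against control (17 higher, 8 lower), no filter gave 63 and 16, no TMM scaling 10 and 13, and a stricter gate 27 higher. For pre-metastatic against control (1 lower), no filter gave 19, the stricter cell filter 3 and DESeq2 12 lower. For macro-metastatic against pre-metastatic (37 higher, 3 lower), no filter gave 99 and 6 and no TMM scaling 23 and 5. Relative to B cells (16 higher, 3 lower), no filter gave 27 higher, the stricter cell filter 8 higher, and no TMM scaling 9 and 5. Left-out libraries gave 3 to 40 higher and 3 to 16 lower against control, 0 to 0 higher and 0 to 11 lower for pre-metastatic against control, 8 to 60 higher and 2 to 4 lower against pre-metastatic, 2 to 26 higher and 1 to 4 lower relative to B cells, and 122 to 130 higher and 106 to 113 lower between cell types (129 and 115 with all libraries). The cause was not tested, and the share of all genes called under these settings was not counted.

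The replicate block gave 21 higher and 8 lower, 0 higher and 0 lower, and 40 higher and 3 lower in the 3 group comparisons, so that the single pre-metastatic call was lost. Deviations of same-numbered libraries correlated at -0.12 to 0.25. The largest values were 0.25 in endothelial cells (pre-metastatic and macro-metastatic) and 0.23 in Kupffer cells (control and pre-metastatic). Whether same-numbered libraries were processed together is not given in the labels and was not tested.

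Median shares of cells with 3 mitotic genes moved at 500 UMIs to 1.29% in Kupffer cells, 0.485% in B cells, 11.9% in plasma cells and 5.96% in type 1 conventional dendritic cells, and with 2 genes to 0.744% in neutrophils and 2.19% in B cells.

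Reversed values were those of Pcna in Kupffer, between cell types (-0.0307), Pcna in B, between cell types (0.0418) and Top2a in B, between cell types (0.00582) with no TMM scaling. Pcna in monocyte and macrophage, between cell types, turned to 0.0403 with no filter, 0.0342 with no TMM scaling and 0.0251 with the stricter cell filter, and lay between -0.0522 and 0.0497 without single libraries. Top2a in monocyte and macrophage, between cell types, lay between -0.0862 and 0.444 without single libraries. None of these passed the threshold with all libraries except Pcna in B. Over all settings, the named genes gave 1144 values of unchanged direction and call, 337 that lost the call and 8 that gained it. These totals pool the group comparisons with the steadier values between cell types. With no TMM scaling, macro-metastatic against control kept 17 calls and lost 8, and macro-metastatic against pre-metastatic kept 26 and lost 14. Between cell types 33 values were unchanged and 2 lost the call with that setting.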
